A study of Caenorhabditis elegans with 5 samples.

Results

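The Rab, Vps, Sec, Snx, Arf and Arl genes encode much of the machinery that moves proteins and membrane between the compartments of a cell. They were taken by a rule on names, as every listed gene whose symbol starts with *rab-*, *vps-*, *sec-*, *snx-*, *arf-* or *arl-*, and there were 86 of them among the 25393 genes listed, made up of 20 *rab*, 31 *vps*, 19 *sec*, 7 *snx*, 3 *arf* and 6 *arl* genes. Expression was measured by Cel-seq2, a 3′ tag method that starts from the poly(A) end of an mRNA, in whole N2 wild-type *C. elegans* labelled as stage L4 and fed *E. coli* HT115. The animals were hatched in the absence of food to synchronize them at L1 and then grown on NGM agar with 400 µM tamoxifen (3 libraries) or with 400 µM citrate as the control (2 libraries), each labelled 48 h and each made from a pool of staged animals. The study collected tamoxifen animals later than controls because the drug delays development, so that in these libraries treatment and collection time cannot be told apart.

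Secretory proteins enter the endoplasmic reticulum (ER) through the SEC61 translocon, leave it in vesicles coated by COPII and pass through the Golgi to the plasma membrane, where the exocyst tethers incoming vesicles. In the other direction, endocytosed membrane enters endosomes, from which retromer and sorting nexins return cargo, ESCRT complexes sort cargo into internal vesicles, and CORVET and HOPS tether early and late endosomes for fusion with each other and with lysosomes. Rab, Arf and Arl proteins are small GTPases that mark these membranes and recruit coats, tethers and motors. In *C. elegans* oocytes take up yolk, and intestinal cells and scavenger cells take up fluid and proteins, through several of these genes, including *rab-5*, *rab-7*, *rab-10*, *rab-11.1* and *rab-35*.

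The libraries held 3512899, 38276144 and 1782371 tags in tamoxifen and 18882647 and 9277598 in citrate, so that 3 tags, the limit that a count of 0 allows, correspond to 0.854, 0.0784 and 1.68 tags per 1000000 (CPM) in the tamoxifen libraries and to 0.159 and 0.323 CPM in the citrate libraries. These limits cover counting error only. Because only the 3′ end of an mRNA is tagged, whatever its length, levels in CPM are compared between genes without a length term. Nothing in the labels ties the libraries to separate cultures beyond the design's word for biological replicates, and whole animals were used, so that fewer cells of a type and less RNA per cell cannot be told apart. The citrate libraries differed from each other. All 14 oocyte markers tested were higher in the second citrate library than in the first, and their summed level ran from 9234 to 10102 CPM in tamoxifen, against 1991 and 4096 CPM in citrate. Yolk protein genes ran the same way, with sums of 3315 to 4866 CPM in tamoxifen and 1343 and 2128 CPM in citrate, whereas sperm genes summed to 233 to 424 CPM in tamoxifen and 592 and 714 CPM in citrate. None of the listed markers of oocytes, germline, sperm, neurons, muscle, intestine or hypodermis was at 0 in a whole group. The part of these shifts in the results below was not tested. The difference between the citrate libraries is given for some of the genes where it was large, and not for all.

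Of the 86 trafficking genes, 70 reached at least 5 CPM in at least 2 libraries and were tested, together with 8325 genes in all, by limma on log2(CPM + 1), with p-values adjusted by Benjamini-Hochberg. The threshold was an adjusted p under 0.01 and a change over 2-fold. By it, 1 of the 70 was higher in tamoxifen (1.43%), while 4.66% of all tested genes were higher. None was lower, while 2.76% of all genes were, and 3 of the 70 had an unadjusted limma p under 0.05 in that direction (4.29%, with 14.9% of all genes), as 21 had in the other (with 29.7% of all genes). edgeR, run on whole tags, also called 1 gene higher and 0 lower, with 1.78% and 5.12% of all genes, and DESeq2 called 2 higher and 2 lower among 79 genes, with 4.67% and 5.70% of all genes. The gene past the threshold was *vps-39*. At a looser threshold, an adjusted p under 0.1 from limma and over 2-fold, 9 were higher (12.9%, with 16.98% of all genes) and 1 was lower (1.43%, with 9.42% of all genes). Those higher were *vps-33.2*, *vps-39*, *vps-33.1*, *vps-51*, *vps-36*, *sec-8*, *rab-8*, *sec-16A.1* and *vps-35*, and the one lower was *vps-4*. The share of trafficking genes past either threshold was thus below that of all genes in both directions.

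**Figure D1:**
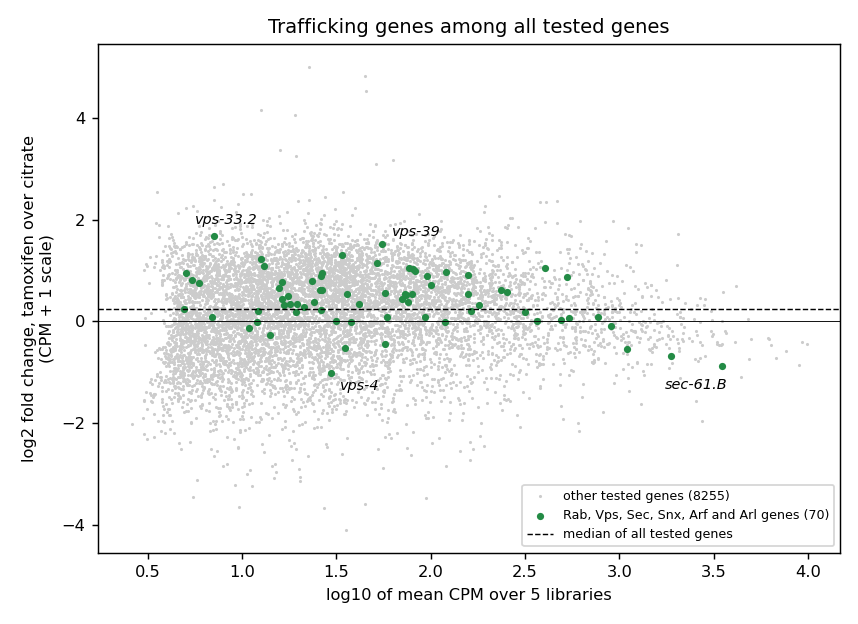
Each point is one tested gene, with the log10 of its mean CPM over 5 libraries on the horizontal axis and its log2 fold change, tamoxifen over citrate on log2(CPM + 1), on the vertical axis. The 70 trafficking genes (green) lie within the cloud of the other 8255 genes (grey), with *vps-33.2* and *vps-39* at the top of their range at 1.67 and 1.52 and *vps-4* and *sec-61.B* at the bottom at -1.01 and -0.88; the dashed line is the median of all tested genes, 0.24.

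Small differences in one direction were common. In 58 of the 70 genes the log2 fold change was above 0 (82.9%), against 60.1% of all tested genes. All 3 tamoxifen libraries exceeded both citrate libraries for 37 genes (52.9%), against 39.4% of all genes, and were below both for 4 genes (5.71%), against 20.8%; the 4 were *sec-61.B*, *sec-61.G*, *sec-22* and *vps-4*. The median log2 fold change was 0.44 for the trafficking genes and 0.24 for all tested genes. After median-of-ratios scaling the medians were 0.26 and 0.07, and 49 of the 70 were above 0 (70%), against 52.9% of all tested genes. Between the control libraries, citrate replicate 2 minus citrate replicate 1, the medians were 0.10 and 0.13. With a single citrate library as the control, the median of the trafficking genes was 0.46 (replicate 2) or 0.49 (replicate 1). The medians of all tested genes were then 0.19 and 0.30. Of the 70, 4 genes (*sec-5*, *sec-15*, *vps-33.2* and *vps-41*) were under 5 CPM in both citrate libraries and entered the test through their tamoxifen values, so that counts over the 70 include genes that had to be higher in tamoxifen.

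**Figure D2:**
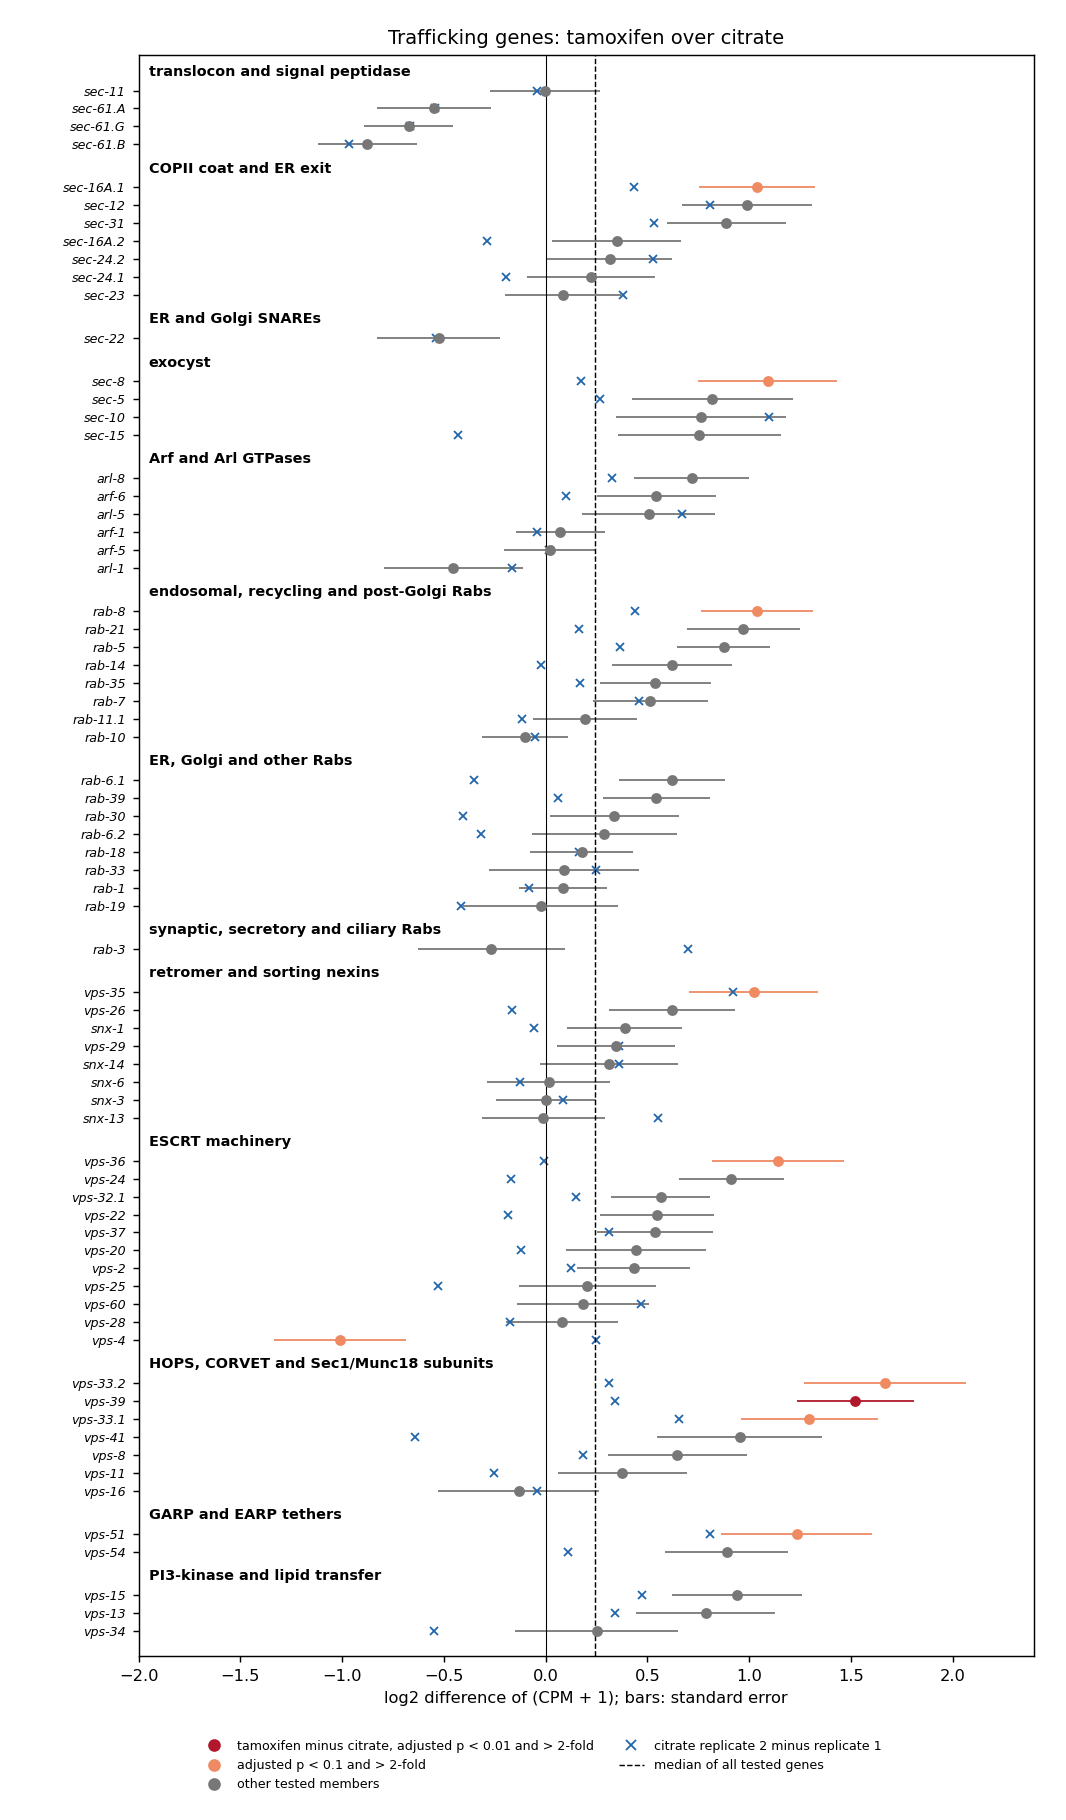
Log2 fold change of each of the 70 tested trafficking genes, tamoxifen over citrate on log2(CPM + 1), with its standard error as a bar, ordered by role; crosses give the difference between the citrate libraries on the same scale, and the dashed line the median of all tested genes. Most points lie to the right of 0, and 12 lie to the left, among them those of the SEC61 genes, *sec-22* and *vps-4*. *vps-39* (dark red) is the gene past the stricter threshold.

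Together, the 86 genes accounted for 13094, 13894 and 12890 CPM in the tamoxifen libraries and 17483 and 13038 CPM in the citrate libraries. The sum was highest in citrate replicate 1 and otherwise similar. This difference lay in the SEC61 translocon genes, which summed to 5109, 5503 and 4340 CPM in tamoxifen and 11110 and 6317 CPM in citrate. Without them the remaining genes summed to 7984, 8390 and 8550 CPM in tamoxifen, all above the 6373 and 6720 CPM in citrate.

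The largest fold changes of the tested trafficking genes were those of *vps-33.2*, *vps-39* and *vps-33.1*, which encode subunits of the endosomal tethers CORVET and HOPS. *vps-39* (WBGene00011625, chromosome V, 14034323 to 14038378 in Ensembl release 115) encodes a HOPS subunit that in yeast binds the Rab7 homologue. It had 74.0, 78.8 and 72.9 CPM in the tamoxifen libraries, against 22.6 and 28.9 CPM in the citrate libraries, from 260, 3017 and 130 tags in tamoxifen and 426 and 268 in citrate. The tamoxifen libraries were close to each other and far above either control. The log2 fold change was 1.52 (SE 0.29, limma adjusted p = 0.00471), it was 1.34 after median-of-ratios scaling, and edgeR and DESeq2 gave adjusted p-values of 0.00862 and 0.000236. *vps-39* lost the call without citrate replicate 1 (1.35, limma adjusted p = 0.0572), without tamoxifen replicate 1 (1.53, 0.0196) and without tamoxifen replicate 3 (1.54, 0.0126), and with no filter on low values (limma adjusted p = 0.0825) or no trend (0.0131). The gene overlaps *ins-10* on the opposite strand, which had at most 1.14 CPM in any library.

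The Sec1/Munc18-type subunit of these tethers, which chaperones SNARE proteins, is encoded by a pair of genes in *C. elegans*. VPS-33.1 belongs to HOPS and VPS-33.2 to CORVET. *vps-33.2* (chromosome II, 6601216 to 6603459) was at 9.96, 7.05 and 13.5 CPM in tamoxifen, against 2.07 and 2.80 CPM in citrate, a log2 fold change of 1.67 (SE 0.40, limma adjusted p = 0.0106). *vps-33.1* (chromosome III, 8700927 to 8703341) was at 46.7, 32.4 and 55.0 CPM in tamoxifen and 13.5 and 21.9 CPM in citrate, a log2 fold change of 1.29 (SE 0.34, limma adjusted p = 0.0147). For both genes every tamoxifen library was above both citrate libraries, and both passed only the looser threshold, but *vps-33.2* entered the test through its tamoxifen values. DESeq2 called *vps-33.2* (adjusted p = 0.00325). Each overlaps a gene on the opposite strand. *epg-5*, which overlaps *vps-33.2*, had 43.7 to 56.1 CPM in tamoxifen and 19.3 and 29.9 CPM in citrate, and the use of strand in counting is not given in the sources used here.

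The other subunits differed less. *vps-41*, the second HOPS-specific subunit, had 6.83, 5.17 and 7.29 CPM in tamoxifen and 3.76 and 2.05 CPM in citrate (log2 fold change 0.95, SE 0.41, limma adjusted p = 0.0858). *vps-8*, a CORVET subunit, had 19.1, 23.9 and 12.9 CPM in tamoxifen and 10.4 and 11.96 CPM in citrate (0.65, SE 0.34, limma adjusted p = 0.157). In both the groups did not overlap, and neither passed a threshold. *vps-41* was also among the genes that reached the filter through tamoxifen alone. The core subunits shared by both complexes did not separate the groups. *vps-11* had 20.5, 32.6 and 27.5 CPM in tamoxifen and 22.03 and 18.3 CPM in citrate (0.38, SE 0.32), and *vps-16* had 11.96, 14.6 and 5.61 CPM in tamoxifen and 11.23 and 10.9 CPM in citrate (-0.13, SE 0.40), with a positive value for *vps-16* when tamoxifen replicate 3 was left out. Of the 9 genes of this group, 7 were tested. *vps-18* and the Sec1/Munc18 gene *vps-45* stayed below the filter.

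**Figure D3:**
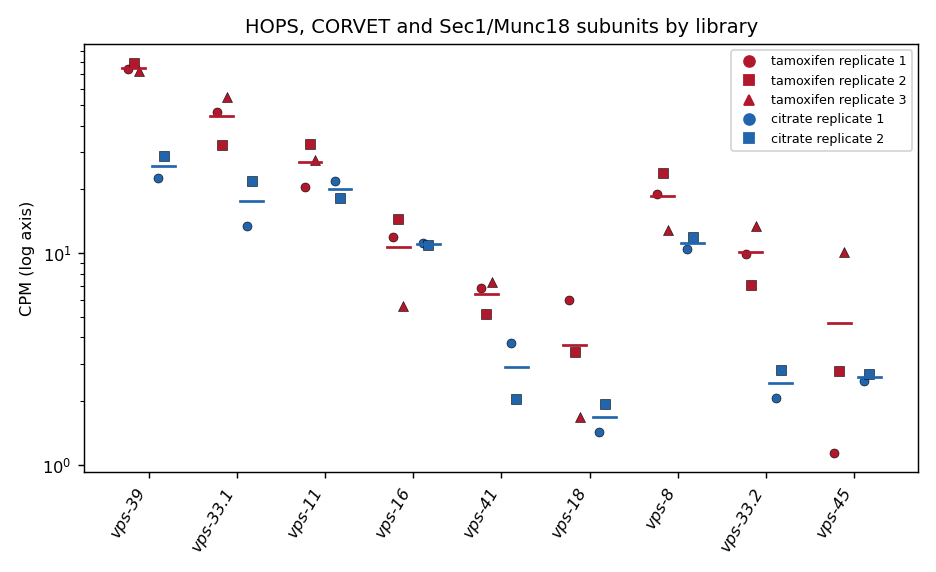
CPM of 9 genes of HOPS, CORVET and Sec1/Munc18 subunits in each library on a log axis, with tamoxifen libraries in red to the left, citrate libraries in blue to the right, and a bar at each group mean. The tamoxifen points of *vps-39* (72.9 to 78.8 CPM) lie close together and above the citrate points (22.6 and 28.9 CPM), while the groups overlap for *vps-11*, *vps-16*, *vps-18* and *vps-45*.

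Shares of tags within HOPS are given as a description. *vps-39* was picked for its call, so its share restates that rise and is no separate support. Of the tags of the 6 HOPS genes in a library, *vps-39* held 44.6% (95% Wilson interval 40.6 to 48.7), 47.2% (46.0 to 48.4) and 42.9% (37.5 to 48.5) in tamoxifen, against 30.3% (27.9 to 32.7) and 34.4% (31.2 to 37.8) in citrate. Here and below such intervals cover counting error only and not the spread between libraries. The shares of the groups did not overlap, although the lower bound of tamoxifen replicate 3 lay just under the upper bound of citrate replicate 2. *vps-33.1* held 28.1%, 19.4% and 32.3% in tamoxifen and 18.1% and 26.1% in citrate, so that its share overlapped between the groups.

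GARP and EARP, related tethers of the trans-Golgi and of recycling endosomes, are represented by 5 genes, of which 2 were tested. *vps-51*, a subunit common to both complexes, had 13.1, 15.02 and 21.9 CPM in tamoxifen and 4.55 and 8.73 CPM in citrate (log2 fold change 1.23, SE 0.37, limma adjusted p = 0.0259). *vps-54*, specific to GARP, had 27.3, 35.3 and 34.2 CPM in tamoxifen and 16.2 and 17.6 CPM in citrate (0.89, SE 0.30, limma adjusted p = 0.0402). Both were higher in every tamoxifen library. The citrate libraries differed by 0.81 on the log2 scale for *vps-51* and by 0.11 for *vps-54*, and the fold change of *vps-51* was 0.83 against the second citrate library and 1.64 against the first, each taken alone. The tag counts of *cat-4* and *del-6*, on the strand opposite to *vps-54*, were lower in tamoxifen, with *del-6* at 26.4 to 55.7 CPM in tamoxifen and 69.9 and 98.9 CPM in citrate. The remaining genes *vps-50*, *vps-52* and *vps-53* had at most 4.49 CPM in any library.

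At the plasma membrane, 4 of the 6 exocyst genes were tested. *sec-8* had 12.5, 18.0 and 20.2 CPM in tamoxifen and 6.78 and 7.76 CPM in citrate (log2 fold change 1.09, SE 0.34, limma adjusted p = 0.0295) and passed the looser threshold. *sec-5*, whose product is a target of Ral GTPases in mammals, had 5.41, 6.09 and 8.98 CPM in tamoxifen and 2.97 and 3.77 CPM in citrate (0.82, SE 0.40, limma adjusted p = 0.123). *sec-10* had 11.4, 27.7 and 19.6 CPM in tamoxifen and 6.83 and 15.7 CPM in citrate (0.76, SE 0.42), where the groups overlapped and the citrate libraries differed by 1.096 on the log2 scale. *sec-5* and *sec-15* were under 5 CPM in both citrate libraries and entered the test through tamoxifen, so that no summary over the exocyst genes is given. *sec-3* and *sec-6* had at most 2.90 CPM.

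The endosomal and post-Golgi Rabs included some of the most abundant trafficking genes. Of 9 genes, 8 were tested and 7 had every tamoxifen value above both citrate values, as 39.4% of all tested genes had. Their median log2 fold change was 0.58 (0.40 after median-of-ratios scaling), against 0.24 (0.07) for all genes. *rab-8*, a Rab of post-Golgi and ciliary membrane delivery, had 559, 362 and 600 CPM in tamoxifen and 206 and 280 CPM in citrate (log2 fold change 1.04, SE 0.28, limma adjusted p = 0.0157). *rab-5*, which marks early endosomes, had 601, 644 and 677 CPM in tamoxifen and 307 and 395 CPM in citrate (0.87, SE 0.23, limma adjusted p = 0.0154). *rab-21*, an endosomal Rab of integrin traffic in mammals, had 146, 123 and 181 CPM in tamoxifen and 70.8 and 79.3 CPM in citrate (0.97, SE 0.28, limma adjusted p = 0.0211). In all 3 genes each tamoxifen library was above both controls. *rab-8* passed the looser threshold, while *rab-5* and *rab-21* were under 2-fold on this scale. Set against each citrate library alone, the fold change of *rab-8* was 0.82 (replicate 2) and 1.26 (replicate 1).

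Other Rabs of this group had smaller fold changes. *rab-7*, the Rab of late endosomes and lysosomes, had 79.4, 89.6 and 81.4 CPM in tamoxifen and 49.4 and 68.1 CPM in citrate (log2 fold change 0.52, SE 0.28, limma adjusted p = 0.171). *rab-35*, which acts in recycling of yolk receptors, had 81.4, 95.9 and 95.4 CPM in tamoxifen and 58.4 and 65.9 CPM in citrate (0.54, SE 0.27, limma adjusted p = 0.141). Neither passed a threshold, although the groups did not overlap. *rab-11.1*, the recycling endosome Rab, had 164, 195 and 161 CPM in tamoxifen and 157 and 145 CPM in citrate (0.19, SE 0.26), a difference that turned negative with quantile normalization and edgeR. *rab-10*, which acts in basolateral recycling in the intestine, had 790, 982 and 870 CPM in tamoxifen and 959 and 925 CPM in citrate (-0.10, SE 0.21, limma adjusted p = 0.731), and the groups overlapped. In every library *rab-10* exceeded *rab-5* and *rab-8*, by a smaller ratio in tamoxifen.

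**Figure D4:**
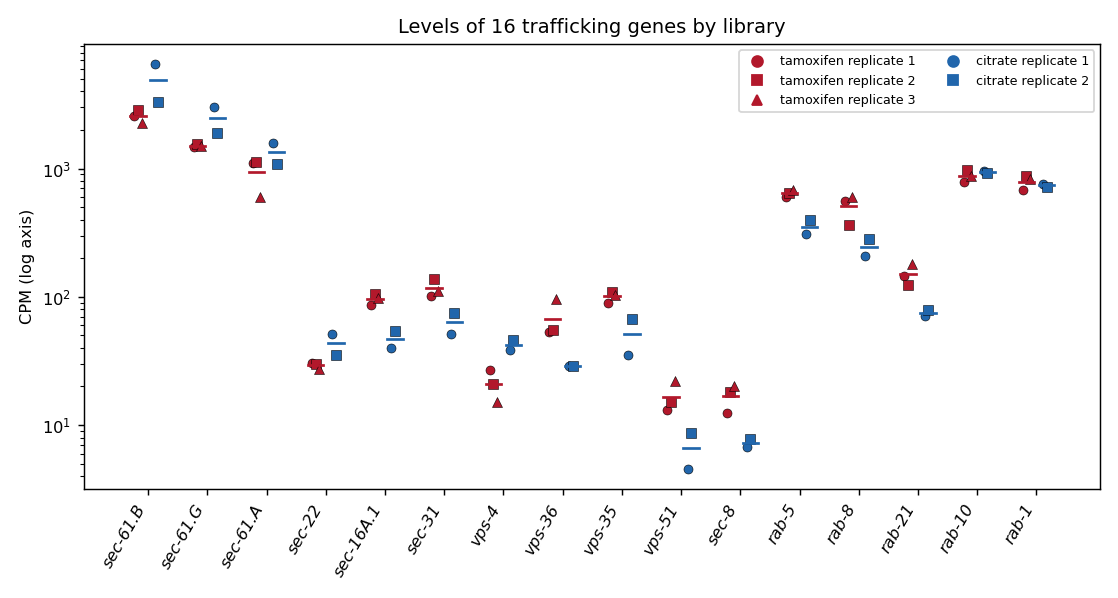
CPM of 16 trafficking genes in each library on a log axis, tamoxifen in red to the left and citrate in blue to the right of each pair, with a bar at the group mean. *sec-61.B* and *sec-61.G* are the most abundant. They and *vps-4* lie lower in tamoxifen, *rab-5*, *rab-8* and *rab-21* lie higher, and *sec-61.A*, *rab-10* and *rab-1* overlap.

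Rabs of the ER and Golgi differed little. *rab-1*, required for ER-to-Golgi transport, had 681, 869 and 826 CPM in tamoxifen and 764 and 722 CPM in citrate (log2 fold change 0.08, SE 0.22), with overlapping groups and a negative sign after median-of-ratios scaling, edgeR and DESeq2. *rab-6.1*, a Golgi Rab, had 305, 229 and 289 CPM in tamoxifen and 200 and 156 CPM in citrate (0.62, SE 0.26, limma adjusted p = 0.0805), and *rab-6.2* had 18.2, 17.3 and 34.8 CPM in tamoxifen and 20.2 and 16.1 CPM in citrate (0.29, SE 0.36). *rab-6.1* separated the groups and *rab-6.2* did not. However, *rab-6.1* overlaps *zif-1* on the opposite strand, which was higher in tamoxifen (log2 fold change 1.55, limma adjusted p = 0.00846). The use of strand in counting is not given. Whether tags of *zif-1* entered the count of *rab-6.1*, and so the *rab-6* ratios given below, was not tested. The 8 genes of this group had a median of 0.23, near that of all genes, and 2 of them had non-overlapping groups with tamoxifen the higher, as 39.4% of all genes had. *rab-3*, the Rab of synaptic vesicles and the one neuronal Rab above the filter, had 15.1, 8.99 and 14.6 CPM in tamoxifen and 11.8 and 19.8 CPM in citrate (-0.27, SE 0.36), with overlapping groups and a value of 0.08 without citrate replicate 2. The 6 neuronal markers tested had a median of -0.52. *rab-28* and *rab-37* had at most 1.11 CPM.

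The genes of protein entry into the ER ran opposite to most of the other trafficking genes. *sec-61.B* and *sec-61.G* encode the beta and gamma subunits of the translocon and *sec-61.A* its channel. *sec-61.B* (chromosome IV, 2388185 to 2388675), the most abundant gene of the 86, was at 2549, 2839 and 2251 CPM in tamoxifen and 6504 and 3326 CPM in citrate (log2 fold change -0.88, SE 0.24, limma adjusted p = 0.0191), and DESeq2 called it (-1.13, adjusted p = 0.00894). *sec-61.G* had 1460, 1549 and 1491 CPM in tamoxifen and 3015 and 1898 CPM in citrate (-0.67, SE 0.22, limma adjusted p = 0.0336). Every tamoxifen library was below both citrate libraries for these genes, but the controls themselves were far apart, with citrate replicate 1 the higher. *sec-61.A* had 1100, 1116 and 598 CPM in tamoxifen and 1591 and 1093 CPM in citrate (-0.55, SE 0.28, limma adjusted p = 0.145), and its groups overlapped.

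For *sec-61.B* the log2 difference between citrate replicate 2 and citrate replicate 1 was -0.97, as large as the treatment difference. Set against citrate replicate 1 alone the treatment difference was -1.36, past the threshold (limma adjusted p = 0.00251), and set against replicate 2 alone it was -0.39 (0.314). For *sec-61.G* these differences were -1.01 and -0.34. Of the tags of the 3 SEC61 genes, *sec-61.B* held 49.9%, 51.6% and 51.9% in tamoxifen and 58.5% and 52.7% in citrate, so that most of the difference in share lay in citrate replicate 1. The 4 genes of this group, with the signal peptidase subunit *sec-11*, had a median of -0.61 (-0.79 after median-of-ratios scaling), and none had more CPM in citrate replicate 2 than in replicate 1. *sec-22*, a SNARE of ER-to-Golgi vesicles, had 30.7, 30.2 and 27.5 CPM in tamoxifen and 51.7 and 35.4 CPM in citrate (-0.52, SE 0.30, limma adjusted p = 0.192), again with citrate replicate 1 the highest.

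Of the 7 genes of export from the ER, 3 had non-overlapping groups with tamoxifen the higher, against 39.4% of all tested genes. *sec-16A.1*, a scaffold of ER exit sites, had 86.5, 106 and 98.7 CPM in tamoxifen and 39.9 and 54.3 CPM in citrate (log2 fold change 1.04, SE 0.28, limma adjusted p = 0.0180). *sec-12*, the exchange factor that activates the GTPase SAR-1, had 103, 81.3 and 125 CPM in tamoxifen and 37.97 and 67.3 CPM in citrate (0.99, SE 0.32, limma adjusted p = 0.0335). *sec-31*, of the outer COPII cage, had 101.1, 138 and 111 CPM in tamoxifen and 51.5 and 74.8 CPM in citrate (0.89, SE 0.29, limma adjusted p = 0.0353). In these 3 genes each tamoxifen library exceeded both controls, and *sec-16A.1* passed the looser threshold. For *sec-12* the citrate libraries differed by 0.81 on the log2 scale and the difference was 0.59 against citrate replicate 2 alone.

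The inner COPII coat, which binds cargo, did not separate the groups. *sec-23* had 64.9, 57.5 and 57.8 CPM in tamoxifen and 49.4 and 64.5 CPM in citrate (log2 fold change 0.09, SE 0.28), with a negative sign after median-of-ratios scaling, quantile normalization, edgeR, DESeq2 and without citrate replicate 1. *sec-24.2* had 186, 261 and 140 CPM in tamoxifen and 127 and 183 CPM in citrate (0.31, SE 0.31), and *sec-24.1* had 25.9, 35.9 and 22.4 CPM in tamoxifen and 25.2 and 21.9 CPM in citrate (0.22, SE 0.32, negative with quantile normalization). The 7 COPII genes had a median of 0.35 (0.17 with median-of-ratios scaling), against 0.24 (0.07) for all tested genes. In 5 of the 7 citrate replicate 2 exceeded replicate 1.

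Among the Arf and Arl GTPases, 6 of 9 were tested, with log2 fold changes from -0.45 to 0.72 and a median of 0.29. *arf-1*, the Arf of COPI recruitment at the Golgi, had 514, 581 and 555 CPM in tamoxifen and 530 and 515 CPM in citrate (log2 fold change 0.07, SE 0.22), with overlapping groups and a negative sign after median-of-ratios scaling, quantile normalization, edgeR and DESeq2. *arl-8*, which couples lysosomes and presynaptic cargo to kinesin, had 107, 143 and 106 CPM in tamoxifen and 63.4 and 79.7 CPM in citrate (0.72, SE 0.28, limma adjusted p = 0.0660). *arf-6*, of the plasma membrane and recycling endosomes, had 46.7, 41.4 and 35.9 CPM in tamoxifen and 26.9 and 28.9 CPM in citrate (0.54, SE 0.29, limma adjusted p = 0.164). *arl-8* and *arf-6* were higher in all tamoxifen libraries without passing a threshold. The ciliary genes *arl-3*, *arl-6* and *arl-13* were at the bottom of the range. *arl-6* had 0 tags in every library, which allows up to 0.0784 CPM in the deepest, and *arl-13* had at most 0.431 CPM while *rla-1*, on its opposite strand, had 2439 to 3133 CPM in tamoxifen and 3255 and 3657 CPM in citrate.

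The retromer core, which returns receptors from endosomes, is formed by the products of *vps-26*, *vps-29* and *vps-35*. *vps-35* had 88.8, 110 and 104 CPM in tamoxifen and 35.3 and 67.7 CPM in citrate (log2 fold change 1.02, SE 0.32, limma adjusted p = 0.0286). *vps-26* had 24.8, 31.4 and 37.03 CPM in tamoxifen and 20.8 and 18.4 CPM in citrate (0.62, SE 0.31, limma adjusted p = 0.134). Both were higher in every tamoxifen library, but for *vps-35* the citrate libraries differed by 0.92 on the log2 scale, and its difference was 0.56 when set against replicate 2 of citrate and 1.48 when set against replicate 1. *vps-35* held 55.9%, 58.9% and 55.7% of the retromer core tags in tamoxifen and 40.4% and 53.6% in citrate, with intervals that overlapped between citrate replicate 2 (50.7 to 56.4) and tamoxifen replicates 1 (51.8 to 59.98) and 3 (50.3 to 60.97).

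Of the sorting nexins, *snx-1*, a partner of retromer, had 68.3, 96.95 and 87.5 CPM in tamoxifen and 64.8 and 62.2 CPM in citrate (log2 fold change 0.39, SE 0.28). *snx-3*, which with retromer recycles the Wnt carrier MIG-14, had 373, 427 and 297 CPM in tamoxifen and 350 and 372 CPM in citrate, a log2 fold change of 0.00 (SE 0.25) that was negative after median-of-ratios scaling, quantile normalization, thinning, edgeR and DESeq2. Its groups overlapped, whereas those of *snx-1* did not. The 8 tested genes of retromer and sorting nexins had a median of 0.33 (0.15 after median-of-ratios scaling), and 4 had non-overlapping groups with tamoxifen the higher, a share near the 39.4% of all genes.

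The ESCRT genes were all above the filter, and 10 of 11 had log2 fold changes above 0, against 60.1% of all tested genes. Their median was 0.44 (0.27 after median-of-ratios scaling), against 0.24 (0.07) for all genes. In 6 of the 11 every tamoxifen value was above both citrate values, against 39.4% of all genes. *vps-36*, an ESCRT-II subunit that binds ubiquitin and phosphoinositides in yeast and mammals, had 52.9, 54.7 and 95.4 CPM in tamoxifen and 29.1 and 28.9 CPM in citrate (log2 fold change 1.14, SE 0.32, limma adjusted p = 0.0201). The citrate libraries were nearly equal and every tamoxifen library was above them, with tamoxifen replicate 3 the highest. *vps-24*, an ESCRT-III subunit, had 192, 211 and 177 CPM in tamoxifen and 108.1 and 96.0 CPM in citrate (0.91, SE 0.26, limma adjusted p = 0.0200). The 3′ exon of *vps-24* (chromosome II, 4995327 to 4995611 in Ensembl release 115) lies inside an exon of *rnh-1.0* on the same strand (4995327 to 4995832). The ratio of their CPM was 0.905, 0.935 and 0.905 in tamoxifen and 0.843 and 0.872 in citrate, and their tags cannot be told apart.

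*vps-4*, which encodes the AAA ATPase that takes ESCRT-III polymers apart, differed in direction from the other ESCRT genes. It had 27.04, 20.9 and 15.1 CPM in tamoxifen and 38.7 and 46.1 CPM in citrate, from 95, 799 and 27 tags in tamoxifen and 730 and 428 in citrate. Every tamoxifen library was below both controls. The log2 fold change was -1.01 (SE 0.32, limma adjusted p = 0.0329), past the looser threshold, it was -1.19 after median-of-ratios scaling, and DESeq2 called it (adjusted p = 0.00949). Of all ESCRT tags, *vps-4* held 2.99% (95% Wilson interval 2.45 to 3.64), 2.24% (2.09 to 2.397) and 1.496% (1.03 to 2.17) in tamoxifen and 5.92% (5.51 to 6.35) and 6.88% (6.28 to 7.54) in citrate. Every tamoxifen share was below both citrate shares. This share rests on the same tags as the fold change of *vps-4*, so it is no separate support. *npr-23*, on the opposite strand, had at most 2.81 CPM.

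The class III phosphoinositide 3-kinase, which makes the lipid that recruits endosomal effectors, is formed around the products of *vps-34* and *vps-15*. *vps-15*, its regulatory kinase-like subunit, had 26.5, 33.7 and 39.3 CPM in tamoxifen and 13.9 and 19.7 CPM in citrate (log2 fold change 0.94, SE 0.32, limma adjusted p = 0.0403). *vps-34*, its catalytic subunit, had 4.27, 5.46 and 6.17 CPM in tamoxifen and 5.35 and 3.34 CPM in citrate (0.25, SE 0.40), with overlapping groups. *vps-13*, which encodes a lipid transfer protein of membrane contacts, had 27.9, 38.5 and 19.6 CPM in tamoxifen and 13.8 and 17.7 CPM in citrate (0.79, SE 0.34, limma adjusted p = 0.0911). *vps-15* and *vps-13* were higher in all tamoxifen libraries, and none of the 3 passed a threshold.

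Several functions are covered by paralogous pairs, and the ratio of CPM within a pair does not depend on the scaling of a library. The log2 ratio of (CPM + 1), which was tested, does depend on it where a gene is low. *sec-16A.1* exceeded *sec-16A.2* 5.07-, 4.48- and 4.19-fold in tamoxifen and 2.18- and 3.68-fold in citrate, and the mean log2 ratio was higher in tamoxifen by 0.69. *vps-33.1* exceeded *vps-33.2* 4.69-, 4.596- and 4.08-fold in tamoxifen and 6.54- and 7.81-fold in citrate, and the mean log2 ratio of (CPM + 1) differed by -0.37. Neither pair overlapped between groups. For each the exact two-sided permutation p was 0.1, the smallest that 3 libraries against 2 allow, so that no pair could pass 0.05. *vps-33.2* had reached the filter through its tamoxifen values alone. The *vps-33* difference was -0.65 with a pseudocount of 0.1 CPM and 0.12 with 5 CPM. The ratios of *rab-6.1* to *rab-6.2*, 16.7, 13.3 and 8.31 in tamoxifen and 9.87 and 9.73 in citrate, and of *sec-24.1* to *sec-24.2*, 0.140, 0.137 and 0.160 in tamoxifen and 0.199 and 0.120 in citrate, overlapped between groups, with exact permutation p of 0.4 and 0.8. *rab-11.2* had 1 tag in the deepest library and 0 in the other libraries, so that *rab-11.1* carried nearly all tags of that pair.

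**Figure D5:**
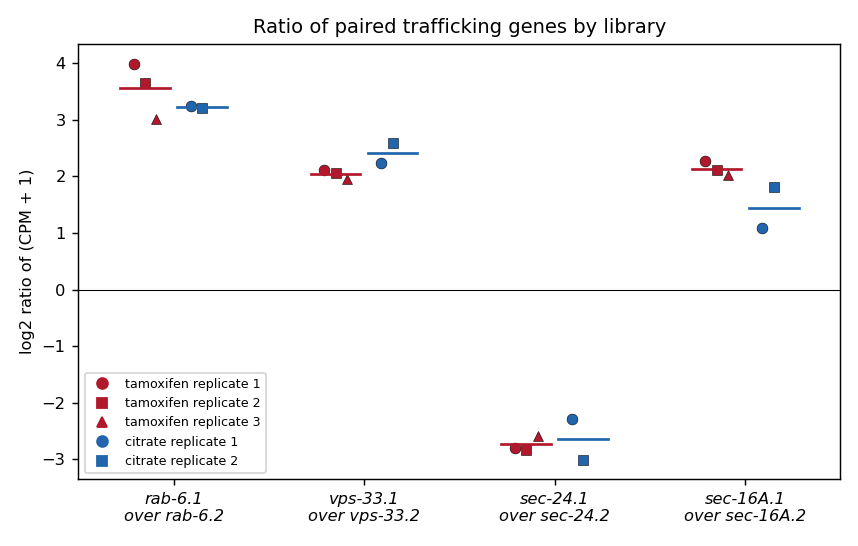
Log2 ratio of (CPM + 1) between the genes of 4 paralogous pairs in each library, with tamoxifen in red to the left, citrate in blue to the right and a bar at the group mean. The ratio of *sec-16A.1* to *sec-16A.2* is higher in tamoxifen (mean 2.14 against 1.45), and the *rab-6* and *sec-24* pairs overlap. That of *vps-33.1* to *vps-33.2* is lower on this scale (2.04 against 2.42), a sign that reversed with a pseudocount of 5 CPM.

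The 16 genes not tested were *sec-3*, *sec-6*, *sec-20*, *vps-18*, *vps-45*, *vps-50*, *vps-52*, *vps-53*, *snx-17*, *snx-27*, *arl-3*, *arl-6*, *arl-13*, *rab-11.2*, *rab-28* and *rab-37*. They ranged from 0 to 10.1 CPM, with the highest value for *vps-45* in tamoxifen replicate 3 alone, and 3 of them had 3 tags or fewer in every library. *arl-3* had 2, 6 and 0 tags in tamoxifen and 38 and 8 tags in citrate, which is 0.569, 0.157 and 0 CPM in tamoxifen and 2.01 and 0.862 CPM in citrate. In the annotation 35 of the 86 genes overlap another coding gene, 7 of them on the same strand, and their tags may include those of the partner.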

How the data were processed

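The authors sequenced Cel-seq2 libraries and deposited 1 table of values they call TPM. The authors made them from counted tags; they sum to 1000000 per library with no gene length, so the deposited values are CPM, and 100% were whole multiples of 1 tag (tolerance 0.001). The submitters' processing notes name Trimmomatic 0.32 and STAR; genome build, use of strand and collapsing of molecular identifiers are not given in the sources used here.

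Groups were taken from the labels (3 tamoxifen, 2 citrate). Of 25393 gene IDs, 25064 were matched to a symbol in the Ensembl release 115 annotation. The 86 members follow from symbol prefixes; the prefixes, roles, marker and partner lists were chosen with earlier results of these data known. Genes that reached 5 CPM in 2 or more libraries were tested by limma 3.58.1 in R 4.3.3 (trend, no covariate) on log2(CPM + 1), which understates changes of low genes, with Benjamini-Hochberg adjustment over all 8325. The threshold was adjusted p under 0.01 and over 2-fold. No set test was made. Named were members past the threshold, the 5 largest rises and falls, the 5 most abundant, landmark genes by role and paralog pairs, and *rab-8*, *rab-21*, *sec-8*, *sec-10*, *sec-12*, *sec-31*, *vps-8*, *vps-11*, *vps-13*, *vps-15*, *vps-16*, *vps-24* and *vps-54* after their values were seen. Alternatives were other pseudocounts (0.1, 5), filters (none, 20 CPM), scalings and thresholds, no trend, thinning to the smallest library, a replicate block, each library left out, and on recovered tags the quasi-likelihood test of edgeR 4.0.16 and DESeq2 1.42.0.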

Additional observations from a re-analysis of the deposited data

How the results depend on the processing

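Of the trafficking genes, 1 was higher and 0 lower past the threshold, and these counts held with pseudocounts of 0.1 and 5 CPM, a filter of 20 CPM, median-of-ratios scaling, edgeR, thinning and no fold limit. The higher count was 0 with no filter and with no trend, 2 with quantile normalization and DESeq2 (2 lower with DESeq2), 9 with 1 lower at the looser threshold, and 0 to 3 with each library left out (0 to 2 lower). With no filter and no trend, 27 and 22 genes were higher at an unadjusted limma p under 0.05. With 1 citrate library left, limma takes the spread from the tamoxifen libraries. Same-numbered libraries correlated by 0.12 and 0.32 in their deviations from the group means. With 2 citrate libraries the citrate deviations mirror each other, so these values are not independent. They do not show that the numbers pair the samples. With a replicate block 4 trafficking genes were higher and 0 lower. The block leaves tamoxifen replicate 3 without a partner. Over the same 70 genes, the median of 0.44 became 0.26 with median-of-ratios scaling, 0.27 with DESeq2, 0.23 with quantile normalization and 0.22 with edgeR. It was 0.46 to 0.51 with each library left out.

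Of 47 named genes tested, 37 kept their sign in every alternative that gave a value. Small differences changed sign in 10. With median-of-ratios scaling, quantile normalization, edgeR and DESeq2, *arf-1* was at -0.11, -0.038, -0.16 and -0.10, *sec-23* at -0.094, -0.17, -0.15 and -0.098, and *snx-3* at -0.18, -0.12, -0.21 and -0.15 (-0.0039 with thinning). *rab-1* was at -0.099, -0.15 and -0.086 with median-of-ratios scaling, edgeR and DESeq2, *rab-11.1* at -0.028 and -0.036 with quantile normalization and edgeR, and *sec-24.1* at -0.056 with quantile normalization. With the replicate block *rab-6.2* was at -0.021 and *vps-16* at 0.24, and *vps-16* was at 0.43 with thinning. With each library left out, the ranges were -0.62 to 0.084 for *rab-3*, -0.021 to 0.46 for *rab-6.2*, -0.10 to 0.28 for *sec-23*, -0.12 to 0.14 for *snx-3*, -0.38 to 0.24 for *vps-16* and -0.023 to 0.53 for *vps-34*.

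For the partner genes these alternatives were added after the data were seen. The 4 higher became 0 with no filter and no trend, 2 with median-of-ratios scaling and edgeR, 7 with the replicate block and 0 to 5 with each library left out; the 0 lower became 1 with edgeR, 2 with DESeq2 and 0 to 2 with each library left out. Depth limits all genes under about 5 CPM, where tamoxifen replicate 3 has 8.91 tags.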

Other observations

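Genes that act with the trafficking genes but carry other names were read from lists of coats, adaptors, Rab regulators, SNAREs and tethers. Of these, 103 were found and 92 tested, and 4 were higher in tamoxifen at a limma adjusted p under 0.01 and over 2-fold (4.66% of all genes were), with 0 lower (2.76% of all genes were) and 4 lower at an unadjusted limma p under 0.05 (14.9% of all genes). These counts are no higher than the shares of all genes would give, and the 4 higher genes are named after their values were seen. *chc-1*, the clathrin heavy chain, had 269, 213 and 246 CPM in tamoxifen and 69.7 and 103 CPM in citrate (log2 fold change 1.502, SE 0.27, limma adjusted p = 0.00424). *tbc-2*, a Rab GTPase-activating protein of endosomes, had 87.4, 101.2 and 136 CPM in tamoxifen and 21.8 and 47.4 CPM in citrate (1.69, SE 0.35, limma adjusted p = 0.00638). *apb-3*, the beta subunit of the AP-3 adaptor of lysosome-related organelles, had 33.02, 23.8 and 40.96 CPM in tamoxifen and 6.67 and 11.21 CPM in citrate (1.76, SE 0.35, limma adjusted p = 0.00547). *cogc-5*, a subunit of the Golgi tether COG, had 20.5, 11.5 and 19.6 CPM in tamoxifen and 3.18 and 5.93 CPM in citrate (1.72, SE 0.38, limma adjusted p = 0.00862). All 4 were higher in every tamoxifen library, and in each citrate replicate 2 lay above citrate replicate 1. The citrate libraries differed by 1.09 on the log2 scale for *tbc-2*, 0.73 for *cogc-5*, 0.67 for *apb-3* and 0.56 for *chc-1*.

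*sand-1* and *ccz-1*, also named after their values were seen, form the exchange factor that replaces RAB-5 by RAB-7. They had 16.2, 27.6 and 19.6 CPM and 34.4, 31.4 and 42.6 CPM in tamoxifen, against 6.36 and 11.6 CPM and 12.5 and 20.05 CPM in citrate, with log2 fold changes of 1.17 and 1.13 (limma adjusted p of 0.0284 and 0.0207). For *sand-1* and *ccz-1* the citrate libraries differed by 0.78 and 0.64 on the log2 scale. At the looser threshold 16 of the 92 partner genes were higher (16.98% of all genes were, a like share) and 1 was lower (9.42% of all genes). The one lower was *vamp-8*, a SNARE, with 27.6, 18.0 and 19.1 CPM in tamoxifen and 45.9 and 43.1 CPM in citrate (-1.04, SE 0.31, limma adjusted p = 0.0254). The 9 tested genes of signal recognition and the translocon had a median of -0.06, and *trap-3*, a subunit of the translocon-associated complex, had 1073, 1235 and 1025 CPM in tamoxifen and 2261 and 1724 CPM in citrate (-0.83, SE 0.21, limma adjusted p = 0.0129). The tissue markers that fell past the stricter threshold were the intestinal actin *act-5* (-1.62, limma adjusted p = 0.00290) and the cuticle collagen *col-10* (-1.79, limma adjusted p = 0.00539). They were 1 of 7 intestinal and 1 of 4 hypodermal genes tested, against 2.76% of all genes. In the same lists 3 intestinal genes and 1 hypodermal gene had log2 fold changes above 0. Past that threshold 13 of 14 oocyte markers, 4 of 6 yolk genes and 1 of 8 germline genes rose, against 4.66% of all genes.

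Some genes carry a trafficking name in RefSeq but not in the symbols used here and were not counted among the 86. *sec-62*, a translocon partner, had 124, 152 and 120 CPM in tamoxifen and 92.7 and 94.3 CPM in citrate (0.48, limma adjusted p = 0.172), so that it lay on the other side of 0 from the SEC61 genes. *vps-72*, a chromatin factor named after a yeast Vps gene, had 163, 125 and 102 CPM in tamoxifen and 33.3 and 60.04 CPM in citrate (1.49, limma adjusted p = 0.00776).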
